A study of Mus musculus with 2 samples.

Results

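The immunoglobulin kappa light chain locus and its flanks were described as the 500 windows of 10 kb between positions 66500001 and 71500000 of mouse chromosome 6 (mm8 build), out of 253012 such windows with an input read on chromosomes 1 to 19, X and Y. The windows were chosen by position. The locus itself was placed at about 67.4 to 70.7 Mb and took 330 windows, and its flanks took 170. The data were 1 chromatin immunoprecipitation and sequencing (ChIP-seq) library of the transcription factor EBF1 and 1 input library, that is, chromatin sequenced without the antibody step. Both came from splenic B cells of adult C57BL/6 mice, after magnetic depletion (of CD43, AA4.1, CD9, CD4 and CD8 positive cells). Of the cells kept, about 97% were B220 positive and about 92% of these carried CD23 and intermediate CD21, which marks follicular B cells. The antibody was a custom polyclonal made in rabbit against murine EBF1. The labels do not say how many mice were used or whether they were pooled.

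The kappa locus holds the V, J and C segments from which the kappa light chain of the antibody is assembled. In developing B cells a V segment is joined to a J segment, by deletion of the DNA between them or by its inversion, depending on the orientation of the V segment. Enhancers that act on this joining and on kappa transcription lie near the C segment. EBF1 is required for the B cell lineage and binds regulatory DNA of many B cell genes. The RefSeq table of another build (GRCm38.p6) lists 102 V segments, 60 V pseudogenes, 5 J segments and 1 C segment. In its gene order the locus is preceded by vomeronasal receptor genes (Vmn1r39 the nearest, with a role in pheromone sensing), Gng12, Gadd45a, Serbp1, Il12rb2 and Il23r, among others. It is followed by Rpia (an enzyme of the pentose phosphate pathway), Eif2ak3 (the endoplasmic reticulum stress kinase PERK), Foxi3 and, further on, Cd8b1 and Cd8a (the T cell coreceptor). Gene positions in mm8 were not used here, so windows and peaks below are given by position and not assigned to segments or genes.

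The libraries held 24354888 ChIP and 23053279 input reads, of which 36870 and 40003 fell in the region. A median 10 kb window of chromosome 6 held 93 ChIP and 94 input reads. There were no replicates. Intervals below are 95% intervals that cover counting error only, and no p-value is given.

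Input was thinner over the kappa locus than over its flanks. Relative to the median window of chromosome 6, the input level was 0.770 (0.760 to 0.780) over the locus, 0.967 (0.947 to 0.989) over the flank before it and 1.06 (1.03 to 1.08) over the flank after it. Input was at 0.5 of the median or less in 62 of the 330 locus windows (18.8%), against 5.16% of the windows of chromosome 6 outside the region. The flanks had 5 such windows of 170. At the other end, 2 locus windows were at 1.5 or more, against 0.809%. At or below 0.8 there were 178 locus windows (53.9%), against 17.9% elsewhere on the chromosome. The level ran from 0.106 to 1.52 between locus windows. Its SD between locus windows was 0.282, where counting error alone gives 0.0905. Over chromosome 6 outside the region these were 0.240 and 0.102. In windows of 50 kb, 6.06% of the locus was at 0.5 or less, against 1.45% outside the region.

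The thinning was uneven along the locus. For this description the locus up to 70.4 Mb was divided into 6 blocks of 500 kb, numbered from the lower coordinate. The input level was 0.829 in block 1, 0.782 in block 2 and 0.931 in block 3. It was lowest in block 4 (68.9 to 69.4 Mb), at 0.621 (0.599 to 0.644), where 16 of 50 windows were at 0.5 or less. Block 5 was at 0.792 and block 6 at 0.695 (0.672 to 0.720), with 13 such windows. In pieces of 100 kb the lowest level in the locus, 0.517, was that of the piece from 70400001 to 70500000. Among windows with input in at least 5 of their 10 bins of 1 kb, the lowest 5 lay in blocks 6 and 1. They started at 70320001 (10 input reads), 70170001 (13), 67550001 (13), 70200001 (16) and 67510001 (16). The highest 5 held 141 to 143 input reads and lay in block 3 (from 68400001 and 68510001) and in the flanks (from 66890001, 66990001 and 70810001).

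**Figure D1:**
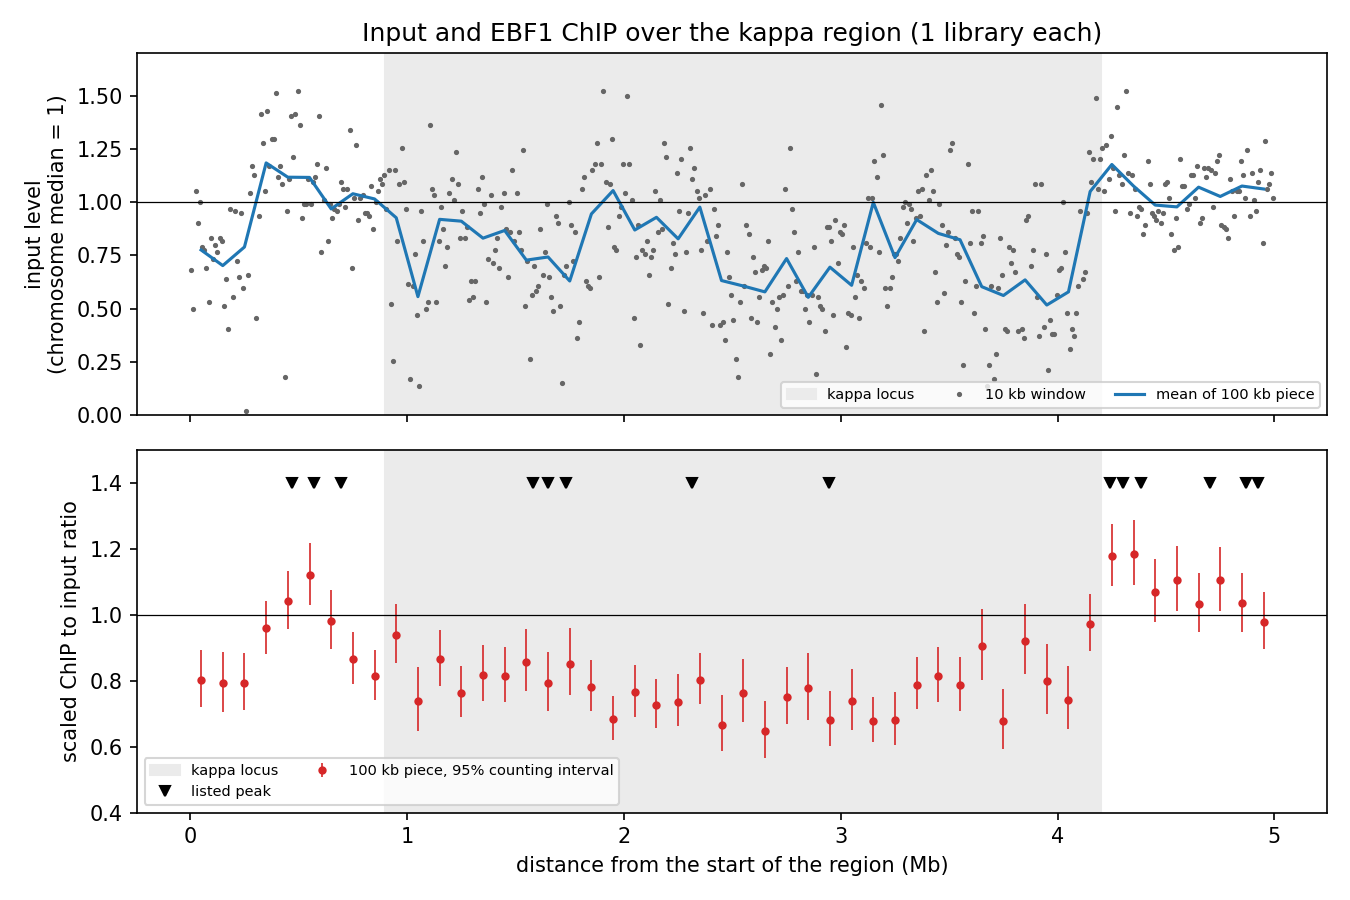
Upper panel, input level of each 10 kb window (points) and mean of each 100 kb piece (line) against the distance from the start of the region in Mb, with the median window of chromosome 6 at 1. Lower panel, scaled ChIP to input ratio of each 100 kb piece with its 95% counting interval, and listed peaks as triangles. The locus is shaded. The ratio of its 33 pieces stays between 0.647 and 0.974, while the 8 pieces after it run from 0.980 to 1.19. The 9 pieces before it run from 0.793 to 1.12.

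Part of the locus gave no reads at all. In either library, 155 of its 3300 bins of 1 kb were empty (4.70%), against 33 of 1700 in the flanks (1.94%) and 3.04% of the bins of chromosome 6 outside the region. The longest runs were 7 kb, from 68959001 to 68966000 in the locus and from 66578001 to 66585000 in the flank before it. Counted per covered 1 kb bin, that is, without the empty bins, the input level was still 0.799 over the locus. On the same count it was 0.991 over the flank before the locus and 1.03 from 70.8 to 71.5 Mb. Input was also measured at positions known to be mappable. These are 35 bp stretches already read in the ChIP library or on the other strand of the input, at which it was counted how often a further input read started. This measure does not fall where sequence cannot be mapped.

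By that measure the locus was not below the rest of the chromosome. Input reads per mappable position were 1.15 (1.05 to 1.26) of the chromosome 6 value over the locus, 1.05 (0.905 to 1.22) over the flank before it and 1.09 (0.946 to 1.25) over the flank after it. The 6 blocks ran from 0.955 (0.738 to 1.22) in block 2 to 1.26 (0.999 to 1.56) in block 5. This order depended on which positions were used. With positions read on the other input strand alone, which are fewer, block 5 was lowest at 0.814 (0.372 to 1.54), and block 3 went from 1.24 (1.01 to 1.52) to 0.879 (0.439 to 1.57). Block 4, with the lowest input level, was at 1.08 (0.812 to 1.41). The end of the locus, from 70.4 to 70.7 Mb, was at 1.13 (0.822 to 1.504). Of 42 stretches of the same length on chromosome 6 outside the region, 2 were at or above the locus. A fall of input DNA was thus not detected in any block. The interval of block 2 reaches down to 0.738, and that of block 5 to 0.372 with the fewer positions, so falls within these intervals were not detectable at this depth. The measure also rises where reads gather on fewer positions, which was not tested.

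**Figure D2:**
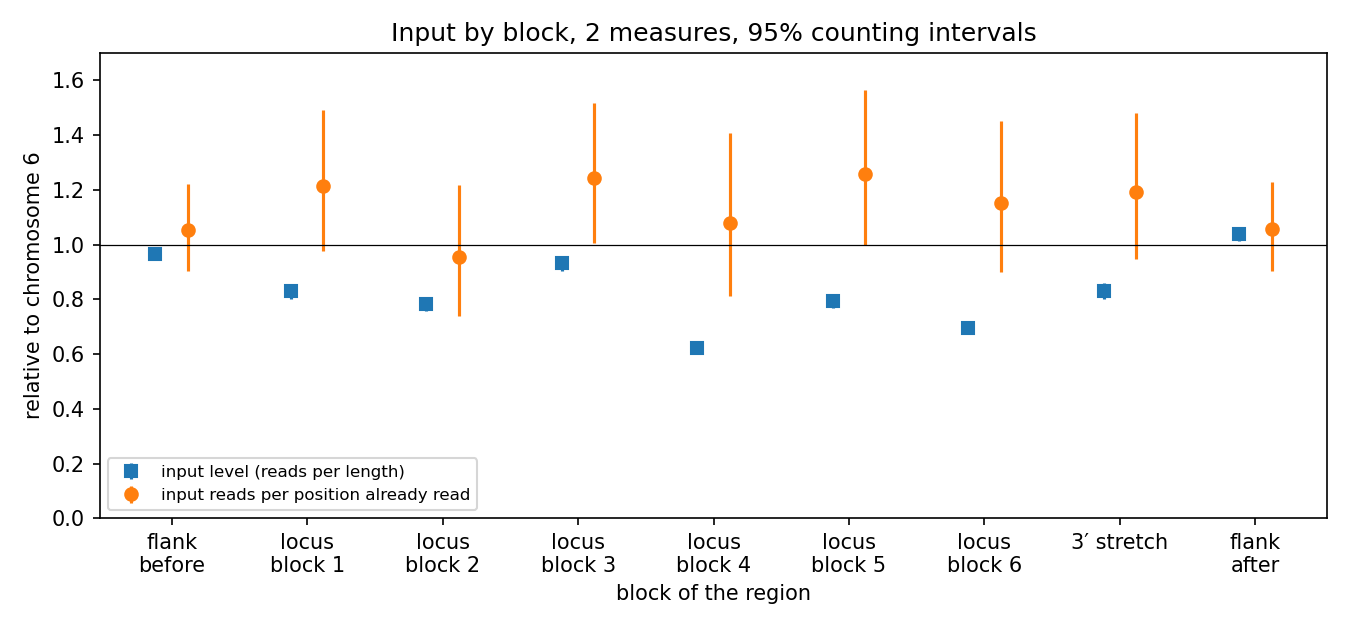
Input by block of the region, as input level per length (squares) and as input reads per position already read (circles), both relative to chromosome 6 and with 95% counting intervals. The squares of the 6 locus blocks lie between 0.621 and 0.931, and the circles between 0.955 and 1.26.

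EBF1 ChIP reads were low against input across nearly all of the locus. Scaled by library totals, the ChIP to input ratio was 0.783 (0.769 to 0.798) over the locus, 0.923 (0.895 to 0.952) over the flank before it and 1.09 (1.06 to 1.12) over the flank after it. Relative to the flank after it the locus was at 0.720 (0.695 to 0.746), and relative to chromosome 6 outside the region at 0.799 (0.784 to 0.814). Of the 322 locus windows with at least 20 input reads, 75 (23.3%) had a ratio at or under 1/1.5 with an interval below 1, against 6.98% of windows of chromosome 6 outside the region (6.50% over all autosomes). In windows of 50 kb these shares were 9.09% in the locus and 1.27% outside the region. The flank before had 6 such windows of 10 kb of 88 and the flank after had 0 of 80. A ratio under 1 was seen in 287 locus windows (89.1%), against 60.0% outside the region. No window of the region reached a ratio of 1.5 with an interval above 1, a call made in 4.02% of windows of the chromosome outside it (5.74% over all autosomes). In windows of 5 kb, 6.88% of those after the locus were called high, against 6.15% outside the region. The other 8 locus windows held too few input reads.

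The ratio was lowest in the middle of the locus. Blocks 1 and 2 had ratios of 0.833 (0.796 to 0.873) and 0.817 (0.779 to 0.857). Blocks 3, 4 and 5 had 0.743 (0.710 to 0.777), 0.721 (0.682 to 0.763) and 0.714 (0.680 to 0.750), and did not differ beyond their intervals. Block 6 was at 0.821 (0.780 to 0.864). Windows with a low ratio were most numerous there, with 17, 16 and 18 in blocks 3 to 5 and 6, 5 and 8 in blocks 1, 2 and 6. The 5 windows with the lowest ratio started at 69720001 (19 ChIP and 56 input reads, ratio 0.321, 0.180 to 0.549), 70410001 (0.324), 69880001 (0.358), 70230001 (0.388) and 69160001 (0.455). In pieces of 100 kb, 29 of 33 in the locus had an interval below 1, against 46.0% of pieces outside the region, and 0 had one above 1, against 25.2%. The ratios of these pieces ran from 0.647 to 0.974 in the locus (SD 0.0816) and from 0.980 to 1.19 in the 8 pieces after it (SD 0.0718). The 9 pieces before it ran from 0.793 to 1.12 (SD 0.122) and overlapped those of the locus. Neighbouring pieces of 1 library are not replicates.

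The low ratio was seen at each input level compared, with pooled values from 0.777 to 0.796. In locus windows at 0.8 to 1.2 of the median input, the pooled ratio was 0.780 (0.759 to 0.801) and 119 of 131 windows were under 1. Windows of chromosome 6 outside the region at that level had a pooled ratio of 0.994 (0.991 to 0.997). At 0.5 or less the locus had 0.777 (0.728 to 0.829), against 0.858 (0.842 to 0.874) elsewhere on the chromosome. Base composition was not measured, and its part in the result was not tested.

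Other parts of the genome had ratios as low. Among 710 autosomal stretches of the same length, the ratio was at or below that of the locus in 41 (5.77%), and the median was 0.982. Of the 710, 322 held as many listed EBF1 peaks as the locus or fewer, and their median ratio was 0.870. All 41 were among these 322. In input level, 22 of the 710 (3.10%) were at or below the locus, and 2 stretches were at or below it in both measures.

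**Figure D3:**
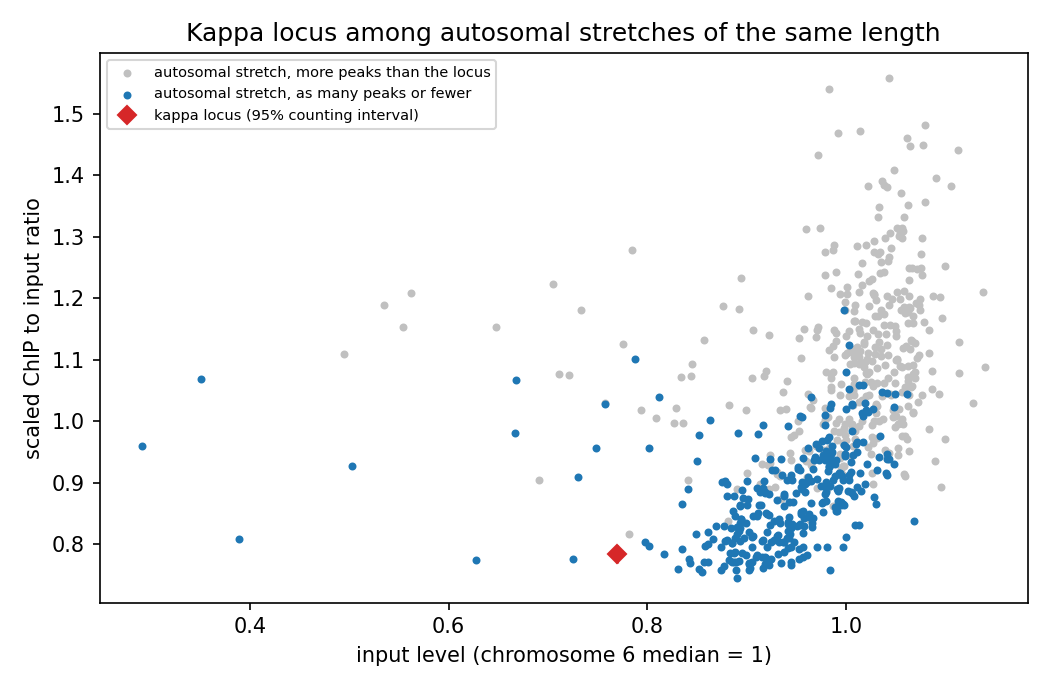
Scaled ChIP to input ratio against input level of 710 autosomal stretches of the length of the locus (points, coloured by whether they held more peaks than the locus) and of the kappa locus (diamond, with a 95% counting interval). The locus lies at an input level of 0.770 and a ratio of 0.783, at the lower left of the stretches with few peaks.

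The authors' list had 14 EBF1 peaks in the region, 3 in the flank before the locus, 5 in the locus and 6 after it. Per Mb of bins with input the locus held 1.61 peaks (0.524 to 3.76) and the flanks together 5.42 (2.48 to 10.3). Chromosome 6 outside the region held 2.35 (2.10 to 2.63) and the autosomes 3.20, so the locus did not differ from either beyond its interval. Scores are the authors' own, and ranged from 5.21 to 14.4 in the region, against a median of 6.07 in the list of 7424. No listed peak lay between the last peak of the locus and the first after it, 1298 kb apart. Neighbouring peaks were at least that far apart in 26 of 334 pairs on the chromosome (7.78%), this pair included.

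The 5 locus peaks together held 97 ChIP reads and 3 input reads. The peak at 68149391 to 68149540 in block 2 had the highest score of the region, 14.4. Over its 150 bp the ChIP library had 26 reads and the input 0, at least 8.20-fold above a floor of 3 input counts. In the 1 kb around its centre the counts were 42 and 3 (ratio 13.2, 4.23 to 66.8). In the list, 11.0% of peaks scored higher. This was the only 1 of the region's 14 peaks with a score of at least 10. Such a score was reached by 1404 of the 7424 peaks in the list and by 53 of the 335 on chromosome 6.

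Block 2 held a pair of further peaks on either side of it. The peak at 68081301 to 68081450 (score 6.60) held 18 and 2 (ratio 8.52, 2.04 to 75.7). The peak at 68231861 to 68232010 (score 9.25) held 19 and 0, at least 5.99-fold above the floor. They lay 68.1 and 82.5 kb from the strongest peak, against a median distance of 113 kb between neighbouring peaks on chromosome 6.

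The other locus peaks stood alone. In block 3, the peak at 68813861 to 68814010 (score 9.81) held 21 and 1 (ratio 19.9, 3.20 to 822). In block 5, the peak at 69445891 to 69446040 (score 7.40) held 13 and 0, at least 4.10-fold above the floor. Blocks 1, 4 and 6 and the last 300 kb of the locus held 0 listed peaks.

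Most flank peaks had lower scores, and together they held 103 ChIP and 14 input reads. Their highest score was 8.72, at 70801201 to 70801350, which held 24 ChIP and 3 input reads (ratio 7.57, 2.30 to 39.3). Below it in score came 71370011 to 71370160 (6.27, with 9 and 0 reads) and 71423401 to 71423550 (5.92, with 7 and 1). The peak at 67196411 to 67196560 (5.70) held 11 and 1, and the one at 67070161 to 67070310 (5.52) held 10 and 2. A score of 5.38 was shared by 3 peaks, at 66966981 to 66967130 (9 and 1 reads), 70886061 to 70886210 (7 and 1) and 71201031 to 71201180 (11 and 0).

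The lowest score was 5.21, at 70743671 to 70743820, where 15 and 5 reads gave 2.84 (0.981 to 9.99). Its interval included 1, as did those of the peaks at 70886061 and 71423401. All 5 locus peaks were in the upper 50% of the list by score, against 2 of the 9 flank peaks. Over 1 kb around the centres, the pooled ratio was 5.78 (3.83 to 9.04) in the locus, from 165 ChIP and 27 input reads, and 3.09 (2.45 to 3.93) in the flanks, from 310 and 95. The former was 1.87 (1.17 to 2.99) times the latter. Peaks were called on these same reads, so the ratios are raised by that selection in both groups.

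ChIP reads at the peaks converged on the centre. Around a bound protein, reads on the plus strand start before it and reads on the minus strand after it, pointing toward it. Within 150 bp of the centre, 121 of 133 ChIP reads at the locus peaks pointed toward the centre (91.0%, 84.8 to 95.3%). The share was 87.5 to 95.2% for single peaks. At the flank peaks it was 117 of 144 (81.3%, 73.9 to 87.3%), from 68.8 to 92.3%. The input had 7 of 13 reads pointing toward the centre at locus peaks and 13 of 34 at flank peaks. The share was above 50% in all 14 peaks, but peaks were called on these reads.

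**Figure D4:**
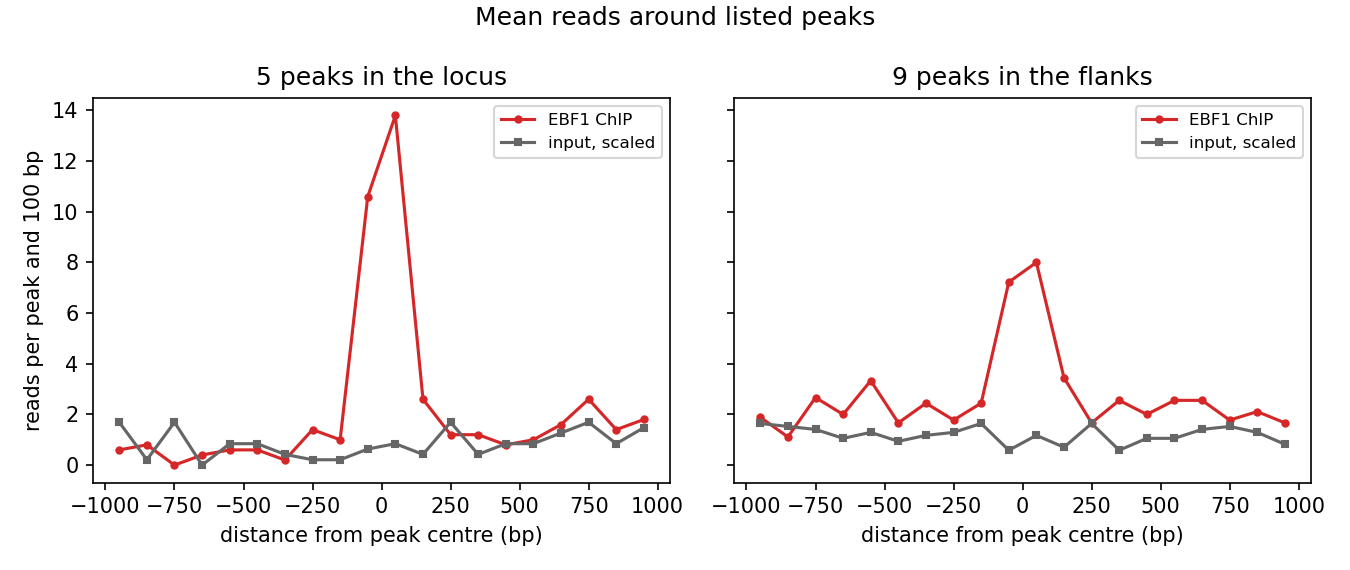
Mean ChIP reads and scaled input reads per peak and 100 bp against the distance from the peak centre in bp, for the 5 locus peaks and the 9 flank peaks, with 5′ ends moved 100 bp toward the 3′ end. Near the centre the ChIP line reaches 13.8 reads in the locus and 8.00 in the flanks, and the input stays under 2 in both.

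Locus windows that held a peak had higher ratios than the others, but none was called high. The peaks were called on these same reads, which raises this difference. The 5 locus windows with a peak had a pooled ratio of 1.15, against 0.777 in the 325 without, 1.48 (1.30 to 1.69) times as high. The highest was 1.32 (0.951 to 1.84) in the window from 68230001, and the lowest 0.924 (0.672 to 1.27) in that from 69440001. Leaving out all reads within 1 kb of a peak centre moved the ratio of the locus from 0.783 to 0.777.

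Outside the listed peaks little local ChIP signal was found. Only 2 of the region's 4762 bins of 1 kb with input (0.0420%) reached a ratio of 5 with 20 or more ChIP reads, both at listed peaks (from 68149001 with 43 ChIP and 4 input reads, and from 68231001 with 24 and 1). On chromosome 6 outside the region, 0.112% of bins with input met these limits. The same limits with ChIP and input exchanged gave 4 bins, more than the 2 found. Such exchanged bins were not counted outside the region. With a ratio of at least 3 there were 17 bins (0.357%), against 0.572% outside the region. Of these, 8 held a peak centre, 2 lay within 1 kb of one, and 7 lay further away, all in the flanks. The 7 included the bin from 70795001, with 26 ChIP and 6 input reads (ratio 4.10, 1.65 to 12.2).

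The stretch from 70.4 to 70.8 Mb holds the last 300 kb of the locus, at its 3′ end, and the first 100 kb of the flank after it. Along it the ChIP to input ratio was higher in the last 100 kb pieces than in the first. Over the whole stretch the ratio was 0.979 (0.932 to 1.03), and over its part inside the locus 0.869 (0.816 to 0.927). It was 0.798 (0.698 to 0.912) in the first 100 kb, from 410 ChIP and 486 input reads, and 0.743 (0.653 to 0.845) in the next, from 427 and 544. It then rose to 0.974 (0.892 to 1.06) from 70.6 Mb, with 1016 and 987 reads, and to 1.18 (1.09 to 1.28) from 70.7 Mb, with 1378 and 1106. The last 100 kb, which lies beyond the locus, thus had 1.48 (1.27 to 1.72) times the ratio of the first. Input rose with it, from a level of 0.517 to 0.579, 1.05 and 1.18. In the 100 kb after the stretch the ratio was 1.19 (1.09 to 1.29). The flank after the stretch as a whole was at 1.07 (1.04 to 1.11), with pieces from 0.980 to 1.19. The value of the stretch depended on its limits: moved up by 100 kb it was 1.06 (1.01 to 1.11), and moved down 0.881 (0.834 to 0.932).

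**Figure D5:**
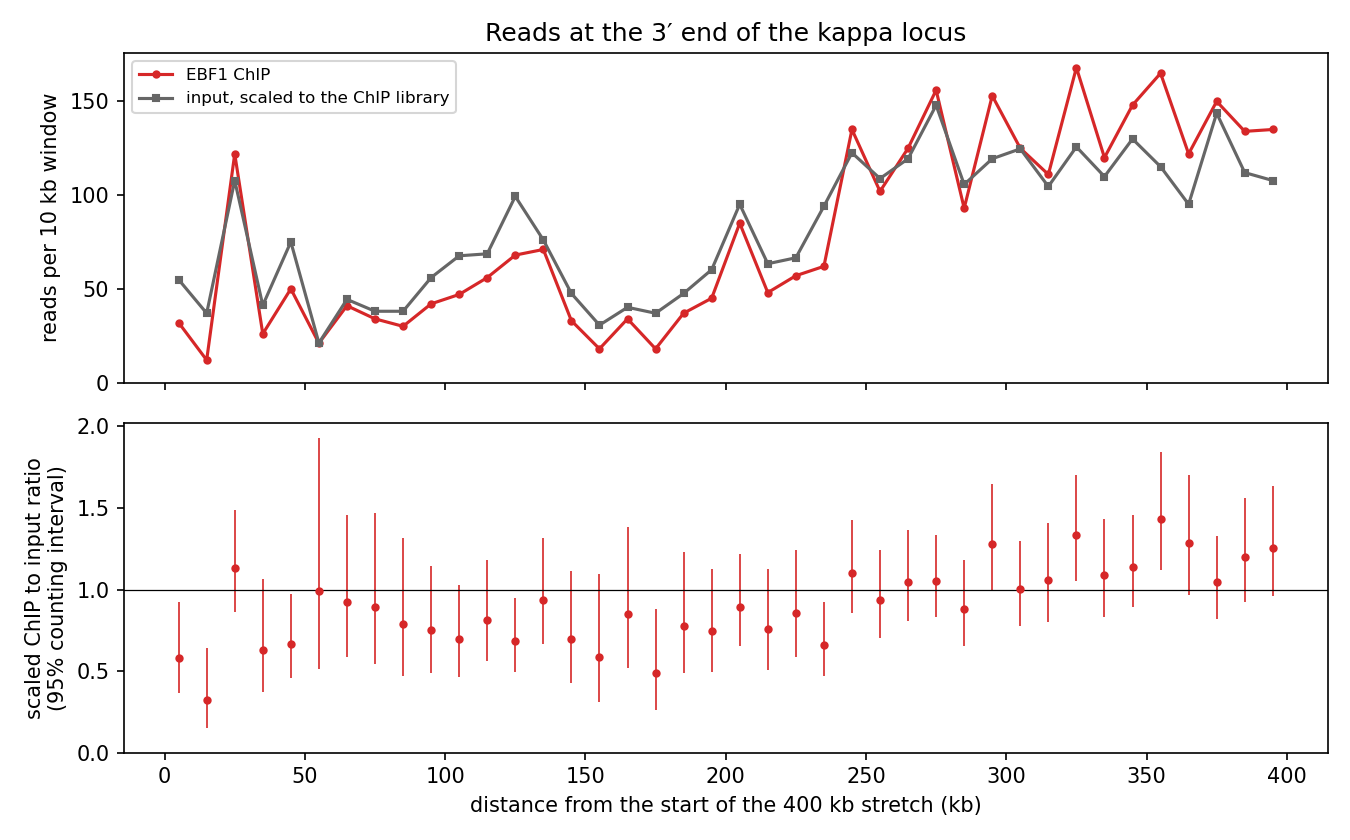
Upper panel, ChIP reads and scaled input reads per 10 kb window against the distance in kb from the start of the 400 kb stretch at the 3′ end of the locus. Lower panel, scaled ratio of each window with its 95% counting interval. Both libraries are low over the first part and higher over the last part, where the highest window has a ratio of 1.43. The last 100 kb lies in the flank after the locus.

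Single windows and bins in this stretch were modest. The highest window ratio, 1.43 (1.12 to 1.84), was that of the window from 70750001, with 165 ChIP and 109 input reads and 0 listed peaks. Of the 381 bins of 1 kb with input, 14 (3.67%) had an interval above 1, against 2.75% of bins of chromosome 6 outside the region. There was 1 in each of the first 2 pieces of 100 kb, 3 in the next and 9 in the last. The median bin of these pieces held 3, 3, 9 and 12 ChIP reads and 4, 5, 10 and 11 input reads. Fewer reads give wider intervals, so bins of the first 2 pieces are harder to call. An interval below 1 was found in 13 of the 381 bins, with 2, 5, 5 and 1 in the same pieces. The share of bins with an interval below 1 was not counted outside the region. The 5 bins with the most ChIP reads, chosen after their values were seen, held 29 to 42. They were led by the bin from 70774001 with 42 ChIP and 14 input reads (ratio 2.84, 1.52 to 5.63). The next, from 70743001, held 40 and 16 and the weak listed peak named above. The third, from 70721001, held 33 and 12 (ratio 2.60, 1.31 to 5.53).

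The other windows among the 5 with the highest ratio lay outside the stretch, and none of the 5 was called high. In the flank after the stretch, the windows from 71250001, 71050001 and 70830001 had ratios of 1.44 (1.09 to 1.92), 1.43 (1.06 to 1.95) and 1.42 (1.08 to 1.88). These stayed under the limit of 1.5. The highest ratio of the region was 1.52 (0.997 to 2.34) in the window from 70160001 in block 6, with 61 ChIP and 38 input reads, where the interval included 1. Next to it, between the 40 kb before and after position 70170000, input had its largest fall in the region, from 283 to 108 reads. The largest rise, from 119 to 313, was at position 70350000. Both edges were picked for their size. ChIP reads fell from 278 to 91 at the first and rose from 104 to 326 at the second, so both libraries stepped together.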

How the data were processed

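Each line of the deposited read files is 1 aligned read of 35 bp, and 0 reads repeat a position and strand. Per the submitters' processing notes the build is mm8, and HOMER is named without a role. Which aligner, filter and peak settings were used is not given in the sources used here. For each 150 bp peak the authors deposited a score of unstated scale.

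The 5′ ends were counted in 10 kb windows, 1 kb bins and fixed blocks. ChIP to input ratios were divided by 1.06, the ratio of the libraries on all assembled nuclear chromosomes. Ratios and shares carry exact binomial (Clopper-Pearson) 95% intervals, input levels and peak densities exact Poisson intervals, and ratios of 2 ratios a log-normal interval over the 4 counts. Without molecular identifiers PCR copies cannot be told from molecules, so intervals and the floor of 3 counts cover counting error only. In peaks, 5′ ends were moved 100 bp. Named windows are the 5 highest and 5 lowest in ratio (at least 20 input reads) and in input (at least 5 bins with input), those with a peak, and the largest steps between 40 kb stretches. All peaks of the region are named. The members, limits and alternatives were chosen with earlier results of these data known. The motif of EBF1 and gene positions were not analysed here, since they need sequence of the mm8 build. The ratio call and the measure per mappable position were tested on simulated data. The tools were scipy 1.17.1, numpy 2.4.6 and pandas 2.3.3 in Python 3.11.15, with figures from matplotlib 3.10.9.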

Additional observations from a re-analysis of the deposited data

How the results depend on the processing

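The ratio of the locus stayed between 0.777 and 0.799 over 6 alternatives, the highest being that scaled by chromosome 6 outside the region, which lies outside the counting interval. Its input level was 0.799 per covered 1 kb bin. Locus windows with low input made up 6.06% in 50 kb windows (1.45% outside the region) and 53.9% with the limit at 0.8, and windows with a low ratio 9.09% in 50 kb windows (1.27%). After the locus, 6.88% of 5 kb windows had a high ratio, against 0 of 10 kb windows and 6.15% of 5 kb windows outside the region. A score of at least 10 left 1 peak in the region and 1 in the locus, against 1404 of 7424 in the whole list. Enriched bins numbered 17 at a ratio of at least 3, 1 with at least 30 ChIP reads, 4 with the libraries exchanged and 9 in 500 bp bins. Of these alternatives, only the ratio of at least 3 was also counted outside the region (0.572% of bins with input). Input per mappable position in the locus was 1.04 (0.812 to 1.31) with positions from the other input strand alone, by which block 3 turned to 0.879, block 5 was at 0.814, the flank before the locus at 0.856 and that after the stretch at 0.671. The ratio of the 3′ stretch went to 1.06 and 0.881 with its limits moved up and down by 100 kb. For these values the cause was not tested, except that larger windows are fewer and stricter limits keep fewer by construction. No paired analysis was possible because there was a single library per group, and no replicate could be left out. The motif was not run.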
